A study of Mus musculus with 12 samples.

Results

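The genotype contrast at postnatal day 21 (P21), Npc1-null against wild-type mouse cerebellum, was examined across all genes on the array. It takes the 3 arrays labelled Npc1-/- and the 3 labelled Npc1+/+ at that age, which are 6 of the 12 arrays of the study. The remaining 6 arrays hold the same genotypes at postnatal day 49 (P49), again with 3 animals each. All mice were of the strain labelled BALB/c Npc1, ate standard chow and received no treatment. By the labels, RNA came from the cerebellum of 1 animal per array, so the replicates are taken as separate animals. All 6 P21 animals are labelled female. The labels name neither the null allele nor the litters. Levels are given as log2(intensity + 16) after quantile normalization, and a difference is null minus wild type on that log2 scale, so that 1 unit is a doubling. Where a gene has several probe sets the one with the highest mean is given, and further probe sets are given beside it for some genes, since they can differ in size or direction. The number of arrays, 3 in each group, limits the precision of every value.

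Npc1 encodes a membrane protein of late endosomes and lysosomes that hands cholesterol taken up with lipoproteins on to the rest of the cell. Without it, free cholesterol and glycosphingolipids collect in these organelles, the cell's sterol sensors see too little cholesterol in the endoplasmic reticulum, and the disorder is known in people as Niemann-Pick disease type C. In the mouse cerebellum the best known features are the loss of Purkinje cells, the activation of microglia (the resident macrophages of the brain) and thin myelin. P21 falls around weaning, while oligodendrocytes are still wrapping cerebellar axons and before the main loss of Purkinje cells in this model.

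The wild-type P21 arrays carried defining transcripts of cerebellum, with the Purkinje cell gene Pcp2 at a mean of 17.18 and the granule cell gene Gabra6 at 17.13. The brainstem gene Hoxb3, at 6.89, was below the level filter of 9.93 that genes had to pass to be tested. Brainstem signal still differed between animals. Over 23 brainstem markers on the array, the median deviation from the P21 mean was -0.46, -0.05 and 0.92 in wild-type animals 1, 2 and 3. In null animals 1, 2 and 3 it was -0.54, -0.1 and 0. The median difference of these markers was -0.48, with 16 below 0 and 7 above. Null animal 2 stood apart. Its array correlated with the other null arrays at a mean r of 0.9328 over the tested genes, against 0.9486 and 0.9543 for null animals 1 and 3 and 0.9793 to 0.982 for the wild types. Sex-linked genes went against the female label in wild-type animal 2 and null animals 2 and 3. The Y-linked gene Eif2s3y was at 12.72, 9.25 and 12.67 in these 3 animals and between 4.35 and 5.41 in the other P21 animals. Xist was at 9.28, 13.01 and 13.36 in the same 3 animals and between 15.74 and 15.86 in the others. Null animals 2 and 3 thus had high Y-linked signal together with Xist above that of wild-type animal 2. For them 1 animal per array rests on the labels alone, and whether tissue was mixed was not tested. Among the P49 animals, null animal 1 is the only one labelled male, and it had Eif2s3y at 7.93 and Xist at 15.63, within the range of the animals labelled female at that age, so its label is doubtful too. Results are therefore also given without these 3 arrays, which leaves 2 wild-type animals and 1 null animal, the lone null animal being assumed to vary like the other groups. The choroid plexus marker Ttr differed between animals of both genotypes, at 12.34, 17.52 and 17.39 in the wild types and 12.58, 17.37 and 16.45 in the nulls. The ratio of 3' to 5' signal of Gapdh was 0.798 to 0.823 in the wild types and 0.83 to 0.857 in the nulls, and that of Actb was 1.38 to 1.63 and 1.32 to 1.51. The part of brainstem content, choroid plexus content and RNA quality in the results, those for myelin genes included, was not tested.

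The gene that the animals lack by genotype was examined first. Npc1 was at 11.06, 11.32 and 11.48 in the wild types and at 10.12, 8.25 and 9.65 in the nulls. All 3 null animals lay below every wild-type animal, and null animal 2 was the lowest. The difference was -1.95 ± 0.37 (SE), with an adjusted p of 0.101 by limma with Benjamini-Hochberg adjustment over all 7835 genes tested, and so it missed the threshold of 0.05. It passed without null animal 1 (adjusted p = 0.0113), without null animal 2 (adjusted p = 0.0318) and with the values as deposited (adjusted p = 0.043). Without the 3 arrays of doubtful sex label the difference was -1.16 (adjusted p = 0.31), and over all settings the adjusted p ran from 0.0113 to 0.815. At P49 the difference was -1.43. Where the probes lie relative to the lesion is not given in the sources used here, so a remaining signal does not bear on the genotype.

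Few genes passed the test at P21. Of 7835 genes tested, 4 rose in the null animals (0.0511%) and 1 fell (0.0128%). The 4 that rose were Mpeg1, which encodes the pore-forming perforin-2 of macrophages, C1qb and C1qc, which encode chains of the complement starter C1q, and B2m, the light chain of class I major histocompatibility molecules. The 1 that fell was Zap70, a kinase best known from the T cell receptor. At an unadjusted p under 0.05 there were 400 genes higher (5.11%) and 390 lower (4.98%). These shares moved with the scaling and with single arrays: they were 7.43% and 2.62% with the arrays scaled to a common median, 9.7% and 11.5% without null animal 1, and 7.73% and 7.51% without null animal 3. In 484 genes (6.18%) all 3 null animals lay above all wild types, and in 439 genes (5.6%) all lay below. The median difference over all genes was -0.005. Most of what follows therefore describes lists of genes by their counts, read against these background shares, and no list is claimed to stand apart from other genes.

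Mpeg1 had the smallest p. Its levels were 6.56, 7.66 and 8.15 in the wild types and 11.59, 11.77 and 11.46 in the nulls. The 3 null animals were nearly level with each other, and the gap to the highest wild type exceeded the spread within either group. The difference was 4.15 ± 0.36 (limma adjusted p = 0.000151). The wild types were below the level filter of 9.93. The gene passed it only through the null animals, those at P49 included. With the filter taken over the P21 arrays it was not tested, nor without null P49 animal 2 or 3. The size of the difference moved with the pseudocount, from 4.29 at 1 to 3.79 at 64. C1qb was at 10.63, 11 and 11.11 in the wild types and at 12.08, 12.4 and 12.07 in the nulls, a difference of 1.27 ± 0.16 (limma adjusted p = 0.00492). C1qc was at 10.57, 10.21 and 10.72 against 11.89, 11.77 and 12.03, a difference of 1.4 ± 0.18 (limma adjusted p = 0.00492). Neither gene overlapped between the genotypes. The remaining chain of the same complex, C1qa, was at 11.54, 11.53 and 11.96 in the wild types and at 12.77, 12.94 and 12.55 in the nulls. It did not overlap either, and its difference of 1.08 ± 0.18 just missed the threshold (limma adjusted p = 0.0524). In brain, C1q comes mainly from microglia and tags synapses and debris for removal.

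B2m was at 13.28, 13.09 and 13.48 in the wild types and at 14.11, 14.29 and 14.23 in the nulls, and again the groups did not overlap. It rose by 0.93 ± 0.13 (limma adjusted p = 0.0128), and a further probe set gave 1.22. Zap70 was at 12.1, 11.88 and 12.31 in the wild types and at 8.96, 9.08 and 10.62 in the nulls, so that null animal 3 lay between the other nulls and the wild types. It fell by 2.54 ± 0.4 (limma adjusted p = 0.0298), whereas a further, dimmer probe set of the gene differed by +1.25 ± 0.73. The T cell gene Cd3e, named as a defining marker of T cells, averaged 8.34 in the wild types, below the level filter. The call of Mpeg1 held in the 21 alternative settings in which the gene was tested, and in the others, among them a filter over the P21 arrays, its mean level was too low to be tested. A fit on the 6 P21 arrays alone called 0 genes, with 222 higher and 178 lower at an unadjusted p under 0.05. It had fewer arrays to estimate the spread, and it left out the P49 groups, which were tighter. Mean r with the own group was 0.9824 to 0.9843 for the P49 arrays and 0.9328 to 0.9543 for the P21 nulls. The main fit shares 1 spread over all groups, and what this did to the calls was not tested. The call of B2m was lost without wild-type animal 1 (adjusted p = 0.101), without wild-type animal 2 (adjusted p = 0.124), without null animal 3 (adjusted p = 0.065) and without the 3 arrays of doubtful sex label (difference 0.73, adjusted p = 0.276). C1qb and C1qc lost their calls without those 3 arrays, at differences of 1.21 and 1.25 (adjusted p = 0.0997 and 0.107), and C1qb also with the mean of probe sets (adjusted p = 0.0928). Zap70 lost its call in 11 settings, among them without wild-type animals 1, 2 and 3 in turn (adjusted p = 0.172, 0.125 and 0.154), without null animal 2 (adjusted p = 0.0565), without wild-type P49 animal 1 and null P49 animals 1 and 2 (adjusted p = 0.0651, 0.0509 and 0.0724), and when no gene was filtered out (adjusted p = 0.0545). Without null animal 1 there were 14 genes called higher and 13 lower, and without null animal 2 there were 6 higher and 3 lower (Cldn11, Mal and Npc1). Without the 3 arrays of doubtful sex label there were 2 higher (Mpeg1 and Lyz1) and 3 lower (Zap70, Kif5c and Rhbdd3, the last pair named after their values were seen).

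**Figure D1:**
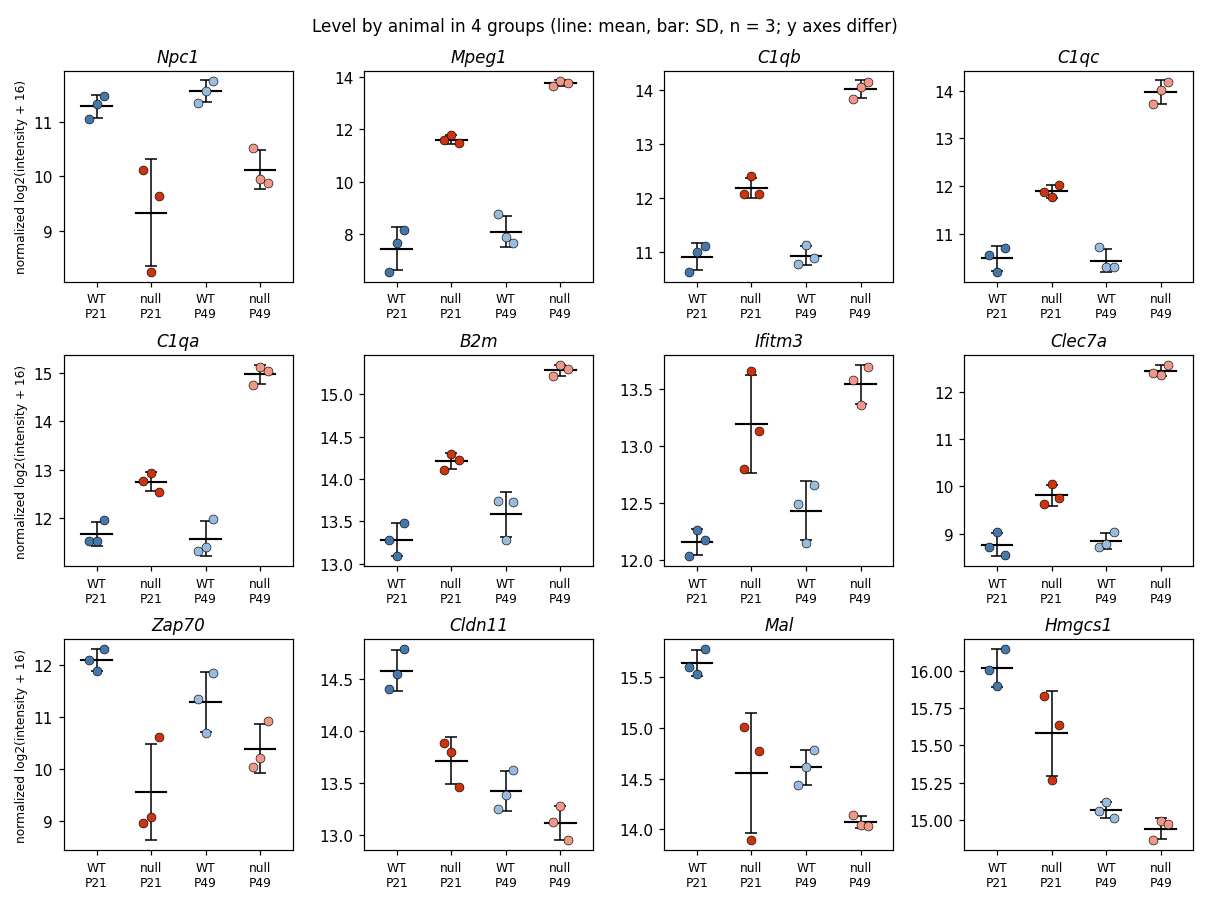
Each panel plots 1 gene as the normalized log2(intensity + 16) of every animal in the 4 groups, with points for animals, a line for the group mean and a bar for the SD (n = 3). In all 12 panels the null and wild-type points at P21 do not overlap, and the widest gap is that of Mpeg1, from 8.15 to 11.46. Apart from Npc1 the genes were picked from those named by their P21 values, so this separation was set by the choice. Over all genes tested, 6.18% did not overlap with the nulls higher and 5.6% with the nulls lower.

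The sequences before the start sites of some of these genes are shown because they carry short motifs of factors known from the same gene groups. They are the 250 bases upstream of the first listed start, from RefSeq with the mouse build GRCm38.p6, read on the gene's strand. C1qb (chr4:136886201-136886450, minus strand) and C1qc (chr4:136892915-136893164, minus strand) are neighbours, and the capitals mark GAGGAA, the core bound by the myeloid factor PU.1, or its reverse complement TTCCTC. B2m lies at chr2:122147437-122147686 on the plus strand, and the capitals mark a match to the interferon-stimulated response element, searched as GAAA, any 2 bases, and GAAA.
C1qb: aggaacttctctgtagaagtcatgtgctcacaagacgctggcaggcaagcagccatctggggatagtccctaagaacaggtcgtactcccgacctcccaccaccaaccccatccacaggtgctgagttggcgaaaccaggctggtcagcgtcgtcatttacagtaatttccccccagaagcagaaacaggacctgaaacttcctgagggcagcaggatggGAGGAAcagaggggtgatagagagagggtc
C1qc: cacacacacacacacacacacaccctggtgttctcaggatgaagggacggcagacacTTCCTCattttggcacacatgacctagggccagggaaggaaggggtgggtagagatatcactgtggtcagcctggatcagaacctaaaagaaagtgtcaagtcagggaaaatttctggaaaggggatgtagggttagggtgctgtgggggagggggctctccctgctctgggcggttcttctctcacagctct
B2m: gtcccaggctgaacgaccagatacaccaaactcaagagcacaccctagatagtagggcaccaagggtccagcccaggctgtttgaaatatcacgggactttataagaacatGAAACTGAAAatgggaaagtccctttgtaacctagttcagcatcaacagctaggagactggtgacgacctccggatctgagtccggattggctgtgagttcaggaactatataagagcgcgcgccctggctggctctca

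The match in C1qb begins 30 bases before the start site, that in C1qc 193 bases before it, and that in B2m 139 bases before it. Searched on both strands, GAGGAA occurred in 23.1% of the 27025 promoters in the table and in 6 of the 13 promoters found for the microglial identity list (46.2%), and it was equally frequent in the myelin list, with 6 of 13. The interferon-stimulated response element occurred in 3.04% of all promoters and in 5 of 14 promoters of the interferon list (35.7%). Mpeg1 had no GAGGAA and Ifitm3 no interferon-stimulated response element in this window, and Zap70, which fell, had GAGGAA before 2 of its 3 listed starts. These counts describe letters in a window and do not show that a factor binds there.

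Microglial genes lay mostly higher in the nulls. Of 32 genes listed for microglial identity, 27 were on the array and 17 passed the level filter, which asks for a mean over all 12 arrays above the 40th percentile. Of those 17, 8 were higher at an unadjusted p under 0.05 and 0 lower (background 5.11% and 4.98%). In 9 the genotypes did not overlap with the nulls higher (background 6.18%), and the median difference was 0.34 (all genes -0.005). Because 5 of the 17 had a wild-type P21 mean below the filter, the median was also taken over the 12 members above it, where it was 0.5. Without the level filter, 21 of the 27 members on the array lay above 0 and 10 were higher at an unadjusted p under 0.05 (background 4.47%), against 0 lower (background 4.06%). Bulk tissue was measured, and fewer cells of a type and less RNA per cell cannot be told apart, nor can more cells and more RNA per cell.

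Among the identity genes beside Mpeg1 and the C1q chains, Csf1r, the receptor that keeps microglia alive, was at 13.25, 13.33 and 13.82 in the wild types and at 14, 14.36 and 14 in the nulls. The groups did not overlap, and the difference was 0.65. Tyrobp, the signalling adaptor used by the lipid sensor TREM2, was at 10.6, 10.74 and 11.06 against 11.8, 11.5 and 11.35, a difference of 0.75. It did not overlap between genotypes. Trem2 itself was below the level filter, at 6.9, 5.97 and 7.03 in the wild types and at 9.06, 7.11 and 9.06 in the nulls, and is named here after its values were seen. Not all identity genes differed: Cx3cr1, P2ry12 and Tmem119, which define resting microglia, had differences of 0.09, 0.23 and 0.18 with overlapping groups. Below the filter, the myeloid factor gene Spi1 differed by -0.89 through a low value of 5.9 in null animal 3, Inpp5d by -0.28 and Gpr34 by -0.1. These 6 genes were named after their values were seen.

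Genes that microglia switch on when they take up lipid and debris gave a like count. Of 18 tested members of that list, 12 were higher at an unadjusted p under 0.05 and 0 lower (background 5.11% and 4.98%). In 8 the groups did not overlap with the nulls higher (background 6.18%), and the median difference was 0.46. Of the 18, 5 had a wild-type P21 mean below the filter and passed through the null animals. They are among the members counted, and over the other 13 the median was 0.39. Without the level filter, 23 of 28 members lay above 0 (background 50.1%), and the median was 0.49. Of the 28, 15 were higher at an unadjusted p under 0.05 (background 4.47%) and 0 lower (background 4.06%). Clec7a, the beta-glucan receptor that marks disease-associated microglia, was at 8.71, 9.03 and 8.55 in the wild types and at 9.62, 10.06 and 9.75 in the nulls. Its groups did not overlap, and the difference was 1.04 (limma adjusted p = 0.154). Lgals3, the galactoside-binding lectin galectin-3, was at 9.44, 9.58 and 9.74 against 10.7, 11.15 and 10.73, a difference of 1.27. Cd68, a lysosomal glycoprotein of macrophages, was at 9.38, 8.89 and 9.88 against 9.86, 11.44 and 11.24, so that null animal 1 lay within the wild-type range. Lyz1, one of a pair of near-identical lysozyme genes whose probes may share signal, was at 10.5, 10.46 and 9.62 in the wild types and at 12.47, 10.84 and 13.62 in the nulls. All 3 nulls were higher, but they differed among themselves by more than the wild types did, and the difference of 2.12 ± 0.48 did not pass (limma adjusted p = 0.252). Plin2, which coats lipid droplets, was at 10.97, 11.45 and 11.07 against 11.5, 11.92 and 11.9, a difference of 0.61. Of the members below the filter, Gpnmb was at 8.8, 8.39 and 6.59 in the wild types and at 9.7, 10.74 and 10.03 in the nulls, Cst7 had a difference of 1.84 and Itgax one of 1.91. These dim genes were named after their values were seen, and none passed the test when no gene was filtered out.

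Without the 3 arrays of doubtful sex label, 5 identity genes were higher and 1 lower at an unadjusted p under 0.05, and 4 activation genes were higher and 0 lower, against backgrounds of 3.69% and 3.57%. Over all settings tried, the list medians ran from 0.33 to 0.75 for identity and from 0.28 to 0.62 for activation. Summed over the 17 identity genes, intensity was 45871 to 54778 in the wild types and 70883 to 75926 in the nulls. Lymphocyte and blood markers were examined as other sources of immune transcripts. Of 21 T and B cell markers on the array, 14 lay above 0 without the level filter, and the median was 0.16. At an unadjusted p under 0.05, 0 were higher (background 4.47%) and 3 lower (background 4.06%), the called gene Zap70 among them. Only 3 of the 21 passed the level filter. Of 14 blood cell markers on the array, 7 lay above 0 and 1 was higher, the red cell gene Alas2, which was at 10.23, 9.69 and 11.44 in the wild types and at 13.84, 11.82 and 11.2 in the nulls.

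Beyond C1q, complement genes that were bright enough to test showed small differences. Of 8 tested members of the complement list, 3 were higher at an unadjusted p under 0.05 and 0 lower (background 5.11% and 4.98%). These 3 were the C1q chains. The 5 members not shared with the microglial lists had a median difference of 0.08. Of 18 members on the array, 14 lay above 0 when no gene was filtered out (background 50.1%), and the median was 0.39. At an unadjusted p under 0.05, 5 were higher (background 4.47%) and 0 lower (background 4.06%). The 2 beside the C1q chains were the receptor genes C3ar1 (1.14) and Itgax (1.91), both higher in every null animal and named after their values were seen.

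Of the interferon-induced genes, 23 were below the level filter, so the list was described with and without the level filter. Of 14 tested members, 5 were higher at an unadjusted p under 0.05 and 0 lower, 13 lay above 0 (background 49.3%), and the median difference was 0.29, or 0.22 over the 10 members whose wild-type P21 mean was above the filter. Of all 37 members on the array, 35 lay above 0 (background 50.1%), 13 were higher at an unadjusted p under 0.05 (background 4.47%) and 0 lower (background 4.06%), and 11 did not overlap with the nulls higher (background 5.95%). The median deviation of the 37 genes from their mean over the P21 animals was -0.09, -0.18 and -0.39 in wild-type animals 1, 2 and 3 and 0.33, 0.27 and 0.2 in null animals 1, 2 and 3, so the ordering did not rest on 1 animal. No member passed the test in either fit.

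Ifitm3, a membrane protein that hinders virus entry, had the smallest p of the interferon list. It was at 12.03, 12.26 and 12.17 in the wild types and at 12.8, 13.66 and 13.13 in the nulls, without overlap, and the difference was 1.04 ± 0.19 (limma adjusted p = 0.0971). Its relative Ifitm1 was at 10.3, 10.43 and 10 against 10.51, 11.4 and 11.33, a difference of 0.83. Irgm1, a GTPase of cell-autonomous immunity, was at 9.78, 9.91 and 9.64 against 10.4, 10.64 and 10.56, a difference of 0.76. Both of these genes were higher in every null animal. Oas1a, a sensor of double-stranded RNA, and Lgals3bp, a secreted glycoprotein, had differences of 0.76 and 1.26 with overlapping groups. Below the filter, and named after their values were seen, the antiviral gene Rsad2 was at 8.4, 9.03 and 9.89 in the wild types and at 12.8, 10.43 and 9.99 in the nulls, Igtp was at 9.68, 9.17 and 9.12 against 10.35, 9.98 and 9.99, and the transcription factor Irf7 was at 9.92, 9.11 and 8.96 against 10.67, 10.44 and 9.96. Each was higher in all 3 nulls, and for Rsad2 the size came mainly from null animal 1. Without the 3 arrays of doubtful sex label, 4 of 15 tested members were higher at an unadjusted p under 0.05 and 0 lower, with a median of 0.5.

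Beside B2m, few antigen presentation genes reached a small p. Of 15 tested members, 2 were higher at an unadjusted p under 0.05 and 0 lower (background 5.11% and 4.98%), and the median was 0.25. The 2 were B2m and H2-M3, a class Ib heavy chain, which was at 9.46, 9.92 and 9.77 in the wild types and at 9.57, 10.79 and 10.77 in the nulls, with null animal 1 inside the wild-type range. H2-M3 had a wild-type P21 mean of 9.72, below the level filter, and passed on its mean over all 12 arrays. It was 1 of 2 such members of the list, and over the other 13 the median was 0.2. The class I heavy chain gene H2-D1 depended on the probe set. The brightest one, which stands for the gene here, was at 13.97, 14.18 and 13.51 in the wild types and at 13.93, 14.1 and 14.54 in the nulls, a difference of 0.3, while others differed by 1.23 ± 0.2 and 0.87 ± 0.16 without overlap, and the remaining ones above the filter differed by -0.08 to 0.62. Class I genes are near-identical in sequence, so these probe sets may share signal and the value of H2-D1 is uncertain. Of 24 members on the array, 20 lay above 0 without the level filter (background 50.1%). At an unadjusted p under 0.05, 3 of the 24 were higher (background 4.47%) and 0 lower (background 4.06%). Among chemokines and cytokines, 2 of 12 tested members were higher and 0 lower (background 5.11% and 4.98%). They were Tgfb3, a growth factor of the TGF-beta family, at 10.29, 10.21 and 10.7 against 10.95, 11.24 and 11.08, and Cxcl14, a chemokine also made by neurons, at 11.29, 11.8 and 11.43 against 11.86, 12.33 and 12.2, with 0.19 on a further probe set of Cxcl14.

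**Figure D2:**
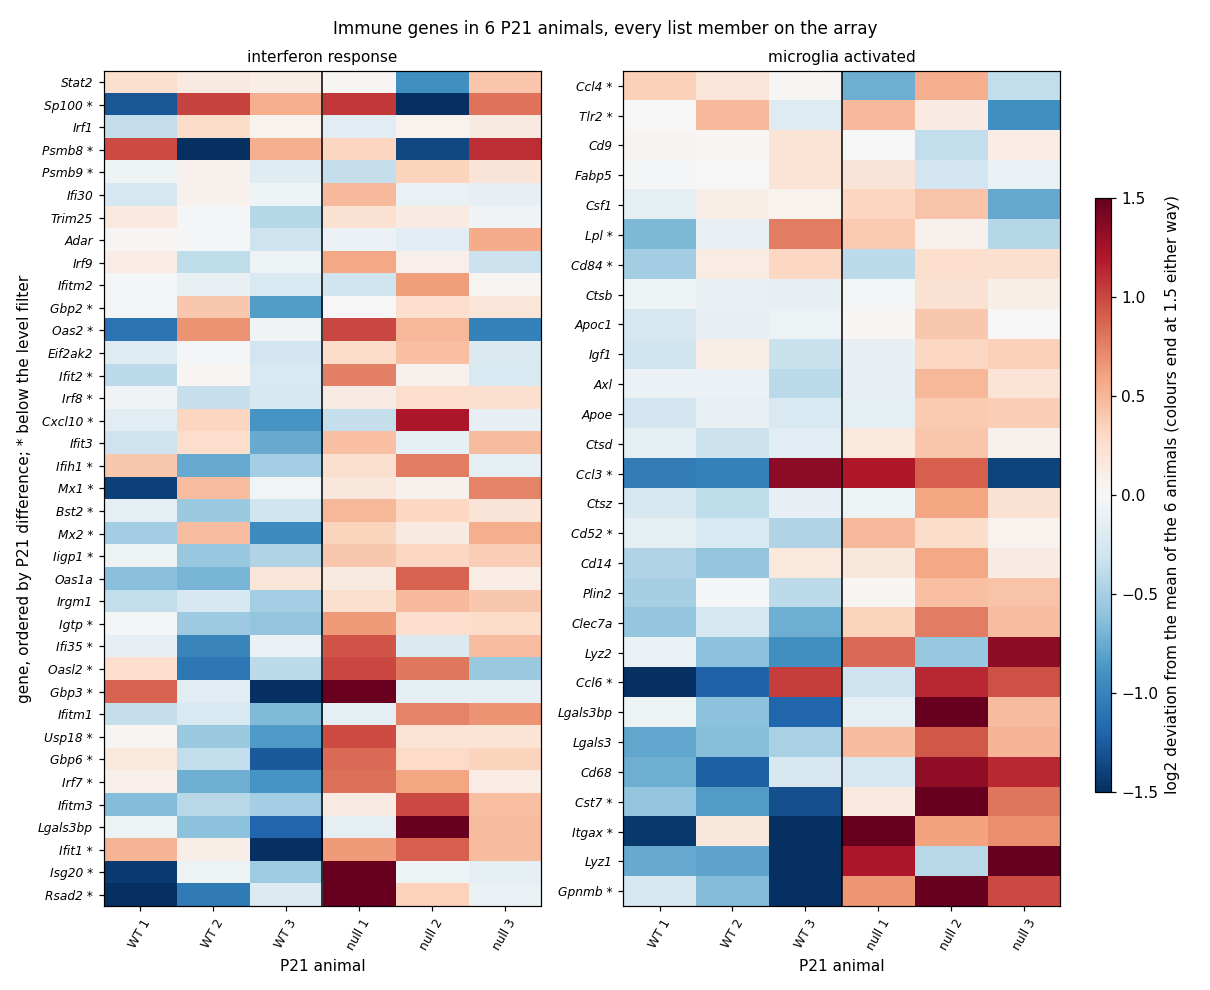
Heat maps of the 37 interferon genes and the 28 microglial activation genes on the array, in the 6 P21 animals, as the log2 deviation from each gene's mean over those animals, with rows ordered by the P21 difference and an asterisk where a gene was below the level filter. The null columns are redder than the wild-type columns over most rows, with 35 of 37 and 23 of 28 genes above 0.

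Genes of myelin and of mature oligodendrocytes lay mostly on the lower side. Of 16 tested structural myelin genes, 6 were lower at an unadjusted p under 0.05 and 0 higher (background 4.98% and 5.11%). Below 0 lay 15 of them (background 50.7%), and the median difference was -0.33. Of 23 genes for oligodendrocyte lipid enzymes and metabolism, 9 were lower and 2 higher, with a median of -0.18. Of 19 oligodendrocyte regulators and other markers, 6 were lower and 0 higher, 17 lay below 0, and the median was -0.25. No member of the 3 lists passed the test. For oligodendrocyte precursors, 1 of 15 genes was lower and 1 higher, and the median was -0.04. The same background shares hold for each of these lists.

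Cldn11, the tight junction protein that seals myelin layers, was at 14.4, 14.55 and 14.79 in the wild types and at 13.89, 13.8 and 13.46 in the nulls. The groups did not overlap, and the difference of -0.86 ± 0.15 just missed the threshold (limma adjusted p = 0.0524). It passed with the values as deposited (adjusted p = 0.0469), with robust moderation (adjusted p = 0.0397), without null animal 1 (adjusted p = 0.0227) and without null animal 2 (adjusted p = 0.0424). In the other 22 of 26 settings it did not pass, with an adjusted p up to 0.449, on the P21 arrays alone. The adjusted p was 0.205 with a common median, and 0.209 and 0.255 without wild-type animals 2 and 3. Without the 3 arrays of doubtful sex label the difference was -0.7. Mal, a proteolipid of compact myelin rafts, was at 15.6, 15.53 and 15.78 against 15.01, 13.89 and 14.77. All nulls were lower, null animal 2 most so, and the difference was -1.08 ± 0.21 (limma adjusted p = 0.109). Gsn, the actin-severing protein gelsolin, which oligodendrocytes make in quantity, was at 14.99, 14.88 and 15.13 against 14.46, 14.52 and 14.39, a difference of -0.55 (limma adjusted p = 0.109) with the nulls close together.

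Tspan2, a tetraspanin of maturing oligodendrocytes, had a difference of -0.44 without overlap. Other members differed in fewer animals. Mog, on the outermost myelin layer, was at 13.63, 13.58 and 14.2 in the wild types and at 13.7, 13.19 and 12.92 in the nulls, and Mobp was at 16.36, 16.48 and 16.9 against 16.57, 15.62 and 16.15. In both, null animal 1 lay within the wild-type range. Mbp, which encodes myelin basic protein and is singled out after its values were seen, had a difference of -0.06 ± 0.07.

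The enzymes on the lower side included several that make myelin lipids. Ugt8a, which makes galactosylceramide, was at 15.63, 15.71 and 16.07 in the wild types and at 15.66, 14.59 and 14.98 in the nulls. Aspa, which frees acetate from N-acetylaspartate, was at 12.3, 12.43 and 12.47 against 11.89, 11.2 and 12 without overlap, a difference of -0.7. Car2, a carbonic anhydrase of oligodendrocytes, was at 14.97, 14.89 and 15.12 against 14.67, 14.28 and 14.68, also without overlap. Scd2, the stearoyl-CoA desaturase of developing brain, and the muscle-type adenylosuccinate synthase gene Adssl1 had differences of -0.24 and -0.61, again without overlap. Pex5l, a relative of the peroxisomal import receptor, differed by -0.75. Among the regulators, Pllp (plasmolipin) had a difference of -0.59 without overlap and the lineage factor Nkx2-2 one of -0.63 with overlap. Without the 3 arrays of doubtful sex label, 3 of 16 myelin genes, 4 of 23 lipid enzyme genes and 3 of 19 regulators were lower, and 0 of each list were higher (background 3.57% and 3.69%). List medians stayed below 0 in all settings tried, from -0.37 to -0.22 for myelin, from -0.22 to -0.11 for the lipid enzymes and from -0.36 to -0.15 for the regulators.

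**Figure D3:**
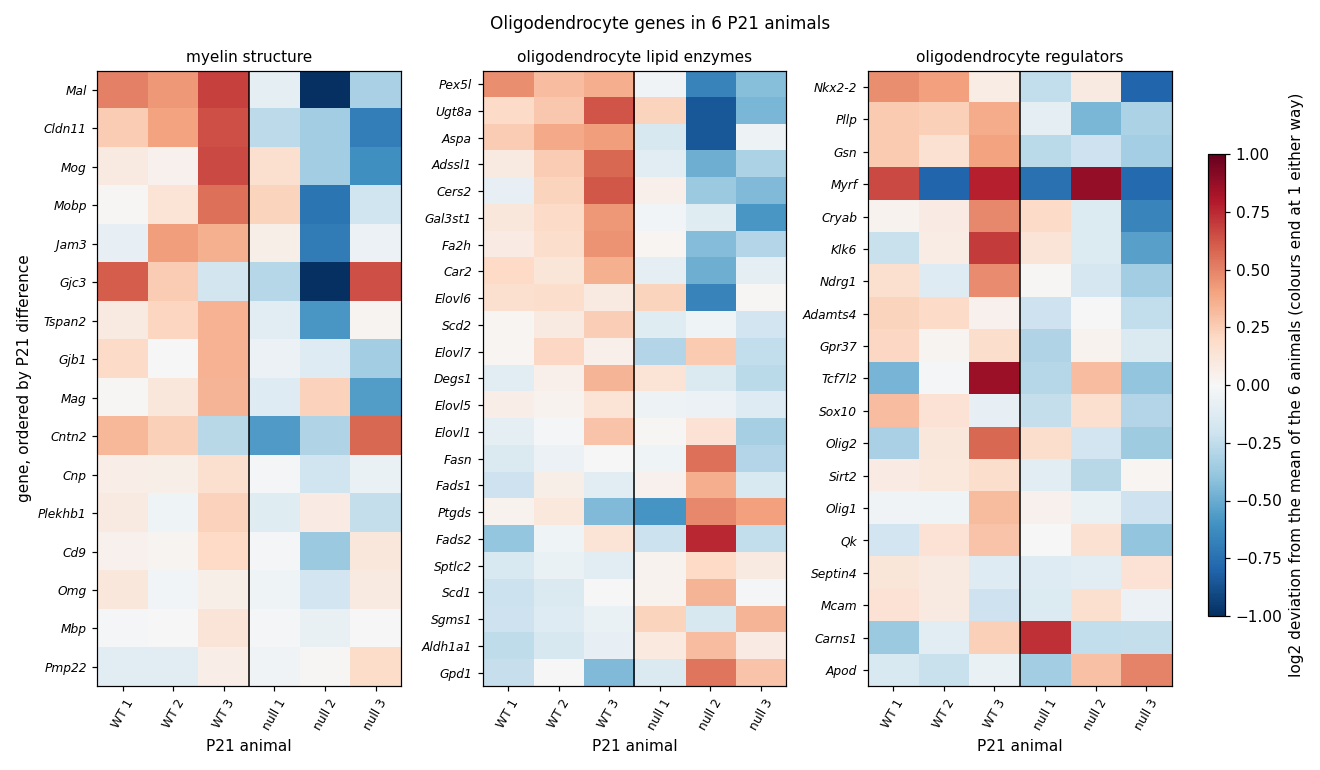
Heat maps of the 16 myelin, 23 lipid enzyme and 19 regulator genes in the 6 P21 animals, as the log2 deviation from each gene's mean over those animals, ordered by the P21 difference. Most of the upper rows are red in the wild types and blue in null animals 2 and 3, and null animal 1 is paler than these in many rows.

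Cholesterol synthesis genes lay slightly lower, and no member passed. Of 19 tested enzymes of the pathway, 5 were lower at an unadjusted p under 0.05 and 0 higher (background 4.98% and 5.11%). Below 0 lay 14 of them (background 50.7%), and the median was -0.13. Cyp51, which demethylates lanosterol, was at 13.4, 13.22 and 13.23 in the wild types and at 12.71, 12.38 and 12.78 in the nulls, a difference of -0.66 ± 0.17. Hmgcs1, which makes HMG-CoA early in the pathway, was at 16.01, 15.9 and 16.15 against 15.83, 15.27 and 15.64, a difference of -0.44 ± 0.12. Both were lower in every null animal. Msmo1 and Fdps also did not overlap, with differences of -0.42 and -0.3, while Idi1 differed by -0.44 with overlap. Over the settings tried, the list median ran from -0.19 to -0.1, and without the 3 arrays of doubtful sex label 3 members were lower and 0 higher.

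The promoter of Hmgcs1 is shown because it was the only 1 of the 16 cholesterol synthesis promoters found that held TCACNCCAC, the sterol response element bound by SREBP factors, against 1.04% of all promoters. It lies at chr13:119690101-119690350 on the plus strand of GRCm38.p6 (RefSeq), and the capitals mark the match, which begins 137 bases before the start site.
Hmgcs1: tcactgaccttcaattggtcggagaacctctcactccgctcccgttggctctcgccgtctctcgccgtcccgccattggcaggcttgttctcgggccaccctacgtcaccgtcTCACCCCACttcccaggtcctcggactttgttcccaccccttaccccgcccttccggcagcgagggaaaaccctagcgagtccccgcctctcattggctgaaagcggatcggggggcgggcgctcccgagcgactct

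Genes for sterol uptake and export had no member lower at an unadjusted p under 0.05, and their shift came mainly from null animal 2. Of 13 tested genes for SREBP regulation and lipoprotein uptake, 4 were higher at an unadjusted p under 0.05, 8 lay above 0 and the median was 0.08, which turned to -0.07 with the mean of probe sets. The median deviation of this list was 0.24 in null animal 2 and -0.03 and -0.05 in null animals 1 and 3. They were Srebf1, the SREBP that favours fatty acid genes, and the lipoprotein receptors Lrp1, Vldlr and Sorl1, with differences of 0.42, 0.34, 0.27 and 0.2. Of 18 tested genes for cholesterol efflux and LXR targets, 3 were higher and 0 lower, 15 lay above 0, and the median was 0.21, or 0.08 without null animal 2. Its median deviation was 0.36 in null animal 2, -0.12 and -0.02 in null animals 1 and 3, and -0.2 to -0.04 in the wild types. Apoe, the main lipoprotein of brain, was at 16.13, 16.3 and 16.19 in the wild types and at 16.28, 16.81 and 16.78 in the nulls, and Abca1, the cholesterol exporter that loads it, was at 13.11, 13.21 and 13.54 against 13.91, 13.65 and 13.43. In both genes 1 null animal lay within the wild-type range. The efflux list had 1 gene higher and a median of 0.05 without the 3 arrays of doubtful sex label.

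Lysosomal genes were mixed at P21. Of 56 tested members, 11 were higher at an unadjusted p under 0.05 and 3 lower (background 5.11% and 4.98%). Npc1 was among the lower ones, and the median was 0.05. In 11 members all nulls lay above all wild types (background 6.18%), and in 3 all lay below (background 5.6%). Grn, a lysosomal growth factor precursor, was at 13.66, 13.49 and 13.73 in the wild types and at 14.06, 14.38 and 14.01 in the nulls, a difference of 0.52. Ctsd, the aspartyl protease cathepsin D, was at 14.09, 13.9 and 14.06 against 14.38, 14.64 and 14.29, a difference of 0.43. Ctsa and Ctsz, both lysosomal carboxypeptidases, differed by 0.4 and 0.5. All 4 were higher in each null animal. Of the lysosomal list, 5 tested members are also in a microglial list, and among the other 51 there were 7 higher and 3 lower, with a median of 0.03. Autophagy genes were 4 higher and 0 lower of 30, with a median of 0.09, led by Vps41, a subunit of the HOPS complex that fuses late endosomes with lysosomes, at 13.53, 13.45 and 13.65 against 13.84, 14.24 and 13.98. The other probe sets of Vps41 differed by 0.04 and -0.23, so its difference of 0.48 rests on 1 probe set. Of 22 sphingolipid and ganglioside genes, 1 was higher and 2 were lower. The higher one was B4galnt1, the synthase for complex gangliosides, with a difference of 0.43, and the lower ones were Cers2 (-0.5), which makes very long chain ceramides, and Sgpp1 (-0.44).

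Astrocyte genes had some members on the higher side at P21, and null animal 1 did not share in this. Of 14 tested genes of reactive astrocytes, 2 were higher at an unadjusted p under 0.05 and 0 lower, with a median of 0.16. Without the level filter, 25 of 30 lay above 0, 4 were higher (background 4.47%) and 0 lower, and the median was 0.25. Gfap, the intermediate filament of astrocytes, was at 13.68, 13.55 and 13.71 in the wild types and at 13.65, 14.44 and 14.3 in the nulls. Null animal 1 was at the wild-type level, and without the 3 arrays of doubtful sex label, which leaves that animal alone, the difference was -0.05. The median of the reactive list was then -0.02. Of 32 genes of astrocytes and Bergmann glia, 4 were higher and 0 lower, with a median of 0.05. Of 26 endothelial and pericyte genes, 2 were higher and 0 lower, among them Slc7a5, the large amino acid transporter of the blood-brain barrier, at 12.39, 12.91 and 12.75 against 13.38, 13.81 and 13.09. Meningeal genes varied between the nulls, with a median deviation of -0.6, 0.52 and 0.29 in null animals 1, 2 and 3 against -0.17, 0.14 and -0.22 in the wild types.

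Neuronal lists had median differences near 0. Of 38 tested Purkinje cell genes, 2 were higher and 2 lower at an unadjusted p under 0.05, and the median was 0.03, whereas it was -0.76 at P49. The calcium buffer gene Calb1 and Pcp2 differed by -0.18 ± 0.15 and 0.08 ± 0.11. Kcnma1, the large-conductance potassium channel that Purkinje cells use to pace firing, was at 12.64, 12.37 and 12.64 in the wild types and at 12.93, 13.13 and 12.79 in the nulls, a difference of 0.4 on the higher side without overlap. The transcription factor Rora, needed by Purkinje cells, differed by 0.33, and by 0.08 and 0.11 on further probe sets. Of 22 granule neuron genes, 2 were higher and 1 lower, with a median of 0.09, and the cerebellar interneuron list had 1 of 17 in each direction. Among 32 axonal and cytoskeletal genes, 2 were higher and 3 lower. Nefm, the medium neurofilament chain, was at 14.54, 14.69 and 15.19 against 14.45, 14.33 and 14.33, a difference of -0.44. Scn1a, a voltage-gated sodium channel, was at 13.42, 13.37 and 13.77 against 13.29, 12.8 and 13.25, a difference of -0.4. Both lay lower in every null animal. At an unadjusted p under 0.05, synaptic vesicle genes had 1 higher and 1 lower of 34, and glutamate receptors 1 higher and 1 lower of 13. GABA and glycine genes had 0 higher and 2 lower of 14, and potassium channels 2 higher and 0 lower of 23. Over all genes tested the shares were 5.11% higher and 4.98% lower.

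Ribosomal protein genes differed little. Of 37 tested ribosomal protein genes, 7 were higher at an unadjusted p under 0.05 and 0 lower (background 5.11% and 4.98%). Of the 37, 26 lay above 0 and 11 below, and the median was 0.11. The median deviation of the list was 0.08, 0.16 and -0.02 in null animals 1, 2 and 3 and -0.09 to 0.01 in the wild types, so null animal 3 lay within the wild-type range. Rps19 was at 14.62, 14.64 and 14.69 in the wild types and at 14.94, 15.23 and 14.81 in the nulls, a difference of 0.34, and Rplp2 differed by 0.24, both without overlap. Proteasome and ubiquitin genes had 0 higher and 1 lower of 32, the core subunit Psma7 at -0.42, with a median of -0.06. Chaperones had 1 higher and 3 lower of 27, with a median of -0.11 and 21 members below 0, led by Hspa4, a nucleotide exchange factor of the HSP70 system, at 13.2, 13.32 and 13.81 against 13.2, 12.51 and 12.54, with -0.1 and -0.37 on further probe sets. Oxidative phosphorylation had 3 higher and 5 lower of 61. Its median of -0.05 changed sign with the scaling, to 0.03 with the values as deposited and to 0.09 with the arrays scaled to a common median. Of 30 genes of glycolysis and the citric acid cycle, 1 was higher and 2 were lower, and fumarase, Fh1, was at 14.56, 14.72 and 14.61 against 14.38, 13.96 and 14.36. Gclc, which makes the first bond of glutathione, had a difference of -0.4 without overlap. The endoplasmic reticulum and integrated stress list had 4 higher and 1 lower of 35, with a median of 0.03. The counts of the lists left over, at an unadjusted p under 0.05, stand against a background of 5.11% higher and 4.98% lower. Several lie above these shares, among them the lower counts of the peroxisome and channel lists and both counts of the iron and haem list. Peroxisome and fatty acid oxidation genes had 1 higher and 3 lower of 29, calcium and sodium channels 1 higher and 4 lower of 24, and iron and haem genes 3 higher and 2 lower of 21. Antioxidant genes had 2 higher and 1 lower of 30, neurotrophic and neuropeptide genes 2 higher and 1 lower of 24, axon guidance genes 1 higher and 0 lower of 28, and annexin and S100 genes 1 higher and 0 lower of 12. Granule precursor genes had 0 in either direction of 18, and choroid plexus and meningeal genes 1 lower and 0 higher of 6 and of 20. The immediate early list had 0 in either direction of 19, and so had the proliferation list of 8 and the cell cycle inhibitor and p53 list of 19. Brainstem genes had 0 in either direction of 3, with a median of -0.42.

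The list for insulin and growth factor signalling had 17 of 19 tested members above 0 (background 49.3%), with a median of 0.19. At an unadjusted p under 0.05, 3 were higher and 0 lower (background 5.11% and 4.98%). Foxo1, a transcription factor held in the cytoplasm by insulin signalling, was at 11.59, 12.1 and 12.1 in the wild types and at 12.44, 13.16 and 12.59 in the nulls, a difference of 0.8 ± 0.24. Its relative Foxo3 was at 13.62, 13.94 and 13.72 against 14.06, 14.24 and 14.34, a difference of 0.46. Neither overlapped between genotypes, and further probe sets of Foxo1 gave 0.4 to 0.42. The list had, without the 3 arrays of doubtful sex label, 1 higher and 2 lower, with a median of 0.09. Klf9, a zinc finger factor induced by glucocorticoids and thyroid hormone, was at 15.84, 16.04 and 16.12 against 16.37, 16.45 and 16.4, a difference of 0.41 with the nulls close together, while its other probe sets gave -0.1 to 0.58, and it was the only member of its list of 26 at an unadjusted p under 0.05.

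**Figure D4:**
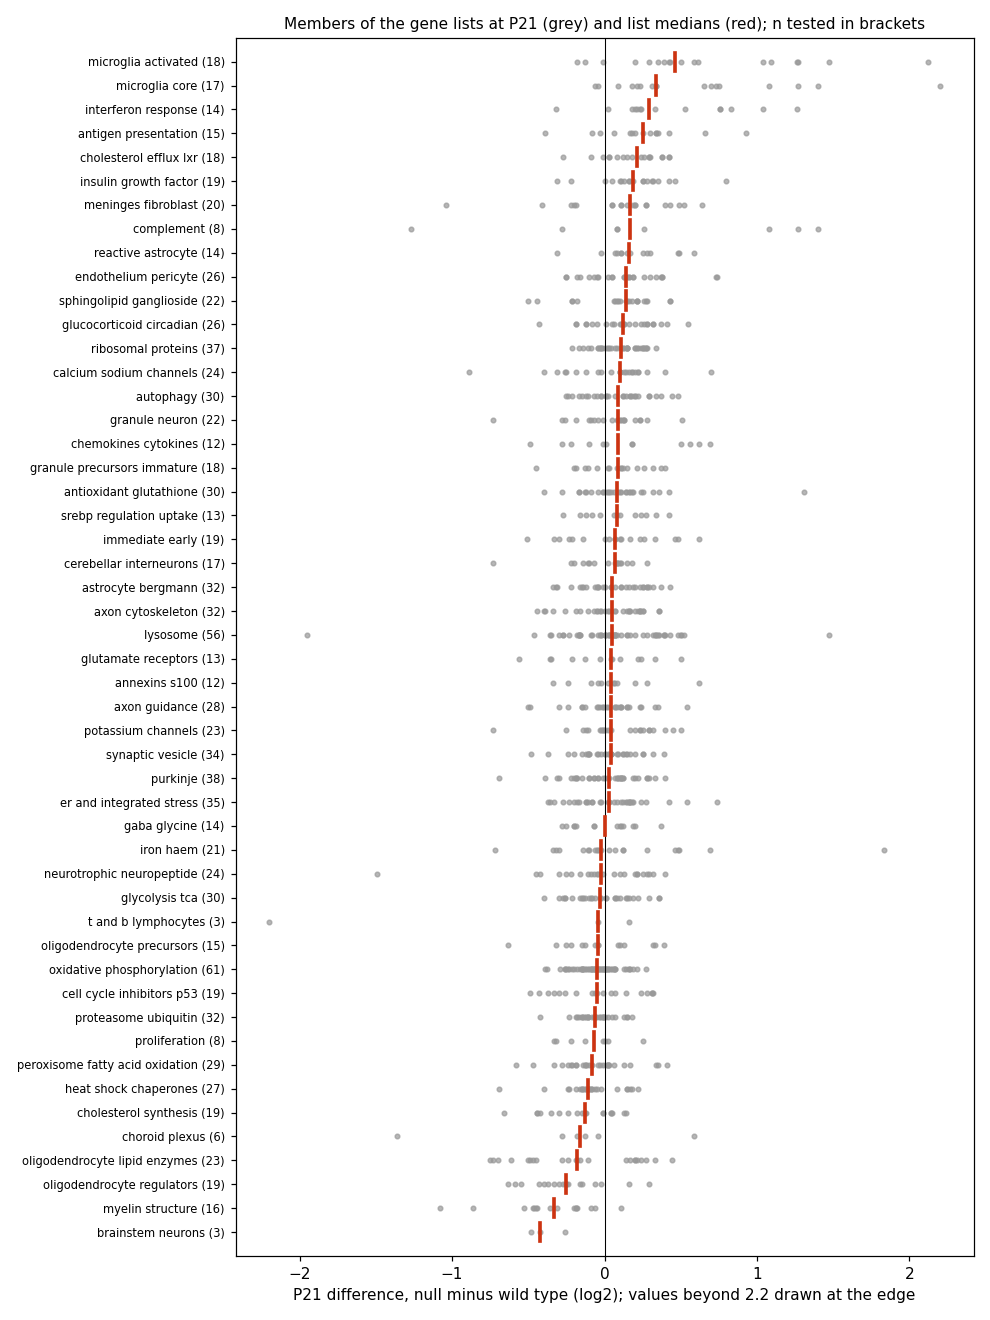
Every tested member of each gene list is drawn as a grey point at its P21 difference (log2, null minus wild type), with the list median as a red line and the number tested in brackets. The microglial lists lie at the top, with medians of 0.34 and 0.46. The brainstem list, with only 3 genes tested, has the lowest median, -0.42. The myelin and oligodendrocyte regulator lists also lie low, with medians of -0.33 and -0.25.

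Among the genes ranked highest by p, several belonged to none of these groups. On the higher side, Sdc4, a heparan sulphate proteoglycan of the cell surface, was at 11.21, 11.37 and 11.33 in the wild types and at 12.17, 12.53 and 12.04 in the nulls, a difference of 0.94 (limma adjusted p = 0.117). Inpp4a, a phosphatase that removes a phosphate from phosphatidylinositol bisphosphate, was at 12.28, 12.62 and 12.35 against 13.08, 13.36 and 12.97, a difference of 0.72 (limma adjusted p = 0.109). Lgals9, the lectin galectin-9, was at 9.92, 10.41 and 10.32 against 10.94, 11.44 and 10.98, a difference of 0.91. The groups of these 3 genes did not overlap. Further probe sets gave 0.22 for Sdc4 and 0.16 for Inpp4a, so the size of both differences rests on 1 probe set. The RNA-binding protein genes Hnrnpab and Wtap, the latter of the RNA methylation complex, differed by 0.5 and 0.56 on 1 probe set each. The other probe sets of Hnrnpab that were above the filter gave -0.16 to 0.01, and that of Wtap gave -0.18. Rpl22l1, a paralogue of a ribosomal protein gene, differed by 0.42.

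On the lower side, Scoc, a coiled-coil protein involved in autophagy, was at 13.88, 13.88 and 13.98 in the wild types and at 13.39, 13.2 and 13.42 in the nulls, a difference of -0.57 (limma adjusted p = 0.174). Psmg2, a chaperone for proteasome assembly, was at 13.07, 13 and 12.79 against 12.34, 12.14 and 12.2, a difference of -0.73. Esrra, a nuclear receptor that drives mitochondrial genes, was at 12.89, 12.66 and 12.75 against 12.27, 12.25 and 12.24, a difference of -0.51. In each of them the nulls lay closely together below the wild types, but further probe sets gave -0.08 for Scoc and -0.16 for Psmg2. Klc1, a light chain of the motor kinesin, and Mff, which recruits the fission machinery to mitochondria, differed by -0.37 and -0.49, with further probe sets from -0.32 to -0.06 and from -0.73 to 0. The amino acid transporter Slc6a15 differed by -0.5, the nucleosome assembly relative Nap1l5 by -0.42, the general transcription factor subunit Taf12 by -0.61 and the neuronal membrane protein Tmeff2 by -0.45. All of these had an adjusted p above the threshold.

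The question of which P21 differences also stood at P49 was addressed with the other 6 animals, which share no array with the P21 comparison. At P49 there were 119 genes called higher in the nulls (1.52%) and 89 called lower (1.14%). Of the 119, 104 (87.4%) had the same sign at P21, and 49 were at an unadjusted p under 0.05 there. Of the 89, 57 (64%) had the same sign at P21, and 6 reached an unadjusted p under 0.05. The sign was the same at both ages in 57.1% of the 7835 genes. The correlation of the P21 and P49 differences across genes was r = 0.3 and rho = 0.2, where genes are not independent replicates.

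The test of the difference between ages, the interaction of genotype and age, called 27 genes with a more positive difference at P49 (0.345%) and 16 with a more negative one (0.204%). Gfap went from 0.48 at P21 to 3.3 at P49 (limma adjusted p of the interaction = 7.79e-05). Tyrobp went from 0.75 by a further 2.8, C1qa by 2.31, C1qc by 2.12 and Ctsd by 1.63, so that these microglial and lysosomal genes had a far smaller difference at P21 than at P49. Mpeg1 had 4.15 at P21 and 5.65 at P49, and its interaction did not pass (limma adjusted p = 0.39). B2m went from 0.93 to 1.7 and Ifitm3 from 1.04 to 1.12, and neither interaction passed (limma adjusted p = 0.108 and 0.974). On the negative side, Inpp4a went from 0.72 to -0.58 (limma adjusted p of the interaction = 0.00717), Kcnma1 from 0.4 to -0.8, B3gnt5, a glycosyltransferase of the lacto series, from 0.28 to -1.6, and Cacna1g, a T-type calcium channel of Purkinje cells, from 0.28 to -1.05. Plxdc1, a plexin-domain receptor, went from -0.01 to -1. The count of 43 interaction calls was 24 without wild-type P21 animal 1, 22 without wild-type P21 animal 3 and 66 without null P21 animal 2. The call was lost in 7 settings for Cacna1g (adjusted p up to 0.0742), in 4 for Kcnma1 (up to 0.0652) and in 1 for B3gnt5 (0.154 with the mean of probe sets). For Cacna1g these were wild-type P21 animals 1 and 3, wild-type P49 animals 1 and 2 and null P49 animals 2 and 3 left out in turn, and the 3 arrays of doubtful sex label. For Kcnma1 they were wild-type P49 animals 1 and 3 and null P49 animal 2, and again those 3 arrays. The total was 20, 20 and 23 without wild-type P49 animals 1, 2 and 3, and 18 without null P49 animal 2 or null P49 animal 3.

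The myelin list had a median of -0.33 at P21 and -0.02 at P49, with 1 gene called higher and 0 lower at the later age, and the regulator list had -0.25 and -0.09. Cldn11 and Mal are drawn at both ages in the plot of single genes by animal. The interaction called 1 myelin gene, Cd9, which is also in the microglial activation list and is named after its values were seen, so a difference between the ages was not shown for the others. Zap70 had -2.54 at P21 and -0.9 at P49 (limma adjusted p = 0.402 at P49).

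**Figure D5:**
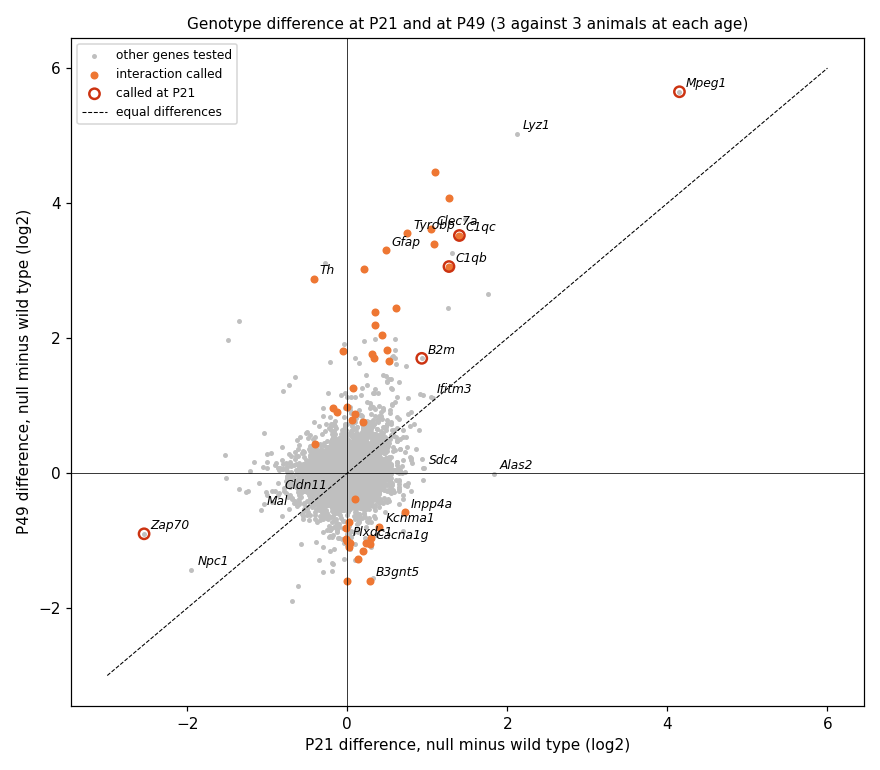
Each point is 1 of the 7835 genes tested, plotted at its difference at P21 (horizontal, log2) and at P49 (vertical, log2), with genes called by the interaction in orange, genes called at P21 ringed in red and a dashed line of equal differences. Tyrobp, C1qc and Gfap lie far above the dashed line, and Inpp4a and Kcnma1 lie to the right of 0 and below it.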

How the data were processed

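RNA of 12 cerebella was hybridised, biotin-labelled, to Affymetrix arrays, 1 animal each by the labels. The authors' deposited table holds 1 linear intensity per probe set and array, with the summarising algorithm, the scaling and any batch not given in the sources used here. Intensities were quantile normalized and logged as log2(value + 16). Probe sets naming 1 gene were kept, the probe set with the highest mean stood for a gene, and 7835 of 12393 genes above the 40th percentile of mean level (intensity 959) were tested. Genotype at P21, at P49 and their interaction were fitted over all 12 arrays with limma 3.58.1 in R 4.3.3 (4 group means, trended moderation, Benjamini-Hochberg adjustment over all genes tested, threshold 0.05, 8 residual degrees of freedom). Normalization, the choice of probe set, the level filter and the estimate of spread were all taken over the 12 arrays, P49 included. The P49 arrays also served for the P49 contrast and the interaction. The fit was tested on simulated data.

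The members and gene lists were chosen with earlier results of these data known. The genes named are Npc1, the genes called, the 15 genes with the smallest p in each direction whose groups do not overlap, up to 6 genes of each list described, and the 5 with the smallest interaction p in each direction; others are marked as named after their values were seen. Alternatives were values as deposited, a common median, pseudocounts of 1 and 64, other filters, the mean of probe sets, P21 arrays alone, other moderation, a replicate block, sex-linked level as a covariate, and leaving out arrays. The replicate numbers were not taken to pair animals. The deviations of same-numbered wild-type and null P21 animals correlated at -0.13, 0.12 and -0.18, and those of the other pairs at -0.21 to 0.31. With 3 animals per group this cannot settle whether animals shared a litter or a batch. Promoters came from RefSeq.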

Additional observations from a re-analysis of the deposited data

Results flagged for a closer look

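The genotype difference at P49 differed from that at P21, by the interaction of genotype and age in limma with Benjamini-Hochberg adjustment, in 43 genes, of which 15 are named here. The difference was larger at P49, in the direction of higher levels in the nulls, by 2.8 for Tyrobp, 2.83 for Gfap, 2.79 for Lgals3, 2.56 for Clec7a, 2.31 for C1qa, 2.12 for C1qc, 1.79 for C1qb, 1.63 for Ctsd, 1.32 for Ctsz and 1.13 for Grn (log2 units). The change between the ages was in the other direction for B3gnt5 (-1.87), Cacna1g (-1.33), Inpp4a (-1.3), Kcnma1 (-1.2) and Plxdc1 (-1).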

How the results depend on the processing

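Each result was recomputed in 26 alternative settings, and the 92 named genes kept their direction in 2352 of 2363 recomputed differences. Most of these genes were named for a small P21 p on the same arrays, so this agreement was largely set by the choice. The count of genes lower at P21 (1) was 3 with the values as deposited, 2 with robust moderation, 3 without the 3 arrays of doubtful sex label, and 0 with no filter, with a filter at the 60th percentile, with the mean of probe sets, with no trend, with the Eif2s3y covariate and with the P21 arrays alone. The count higher (4) was 5 with the values as deposited (62.5% of calls higher, against 80%), 2 without the 3 arrays and 0 with the P21 arrays alone. Leaving out 1 array at a time gave 3 to 14 genes higher, 0 to 13 lower and 18 to 66 interaction calls. With the replicate number as a block, which was not taken to pair animals, 4 genes were higher, 1 lower and 36 called by the interaction. Scaling to a common median moved the median of all genes to 0.032. The sign turned for Plxdc1 (0.04 with a common median, 0.03 without the 3 arrays, 0 with the covariate, and from -0.03 to 0.03 when 1 array was left out), Gabra6 (0.04 with a common median), H2-M3 (-0.04) and Gfap (-0.05) without the 3 arrays, and Ttr (from -2 to 1.16 when 1 array was left out). The cause was not tested. Of 50 list medians, 24 had 1 sign in every setting. Genes dimmer than the filter, most interferon genes among them, were measured with little signal.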
